A study of Mus musculus with 9 samples.

Results

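The genes described are 9 amino acid carriers of the brain's small vessels: Slc7a5, Slc3a2, Slc7a1, Slc38a5, Slc38a3, Slc38a2, Slc6a6, Slc1a4 and Slc7a11. They were chosen by name. Probe sets were taken where the platform annotation named 1 of these genes and no other gene, which gave 20 of 45101 probe sets and 9 of 18194 genes on the array. Each gene was read from the probe set that was brightest on average over the 9 arrays, and its other probe sets served as a check. Of the 9 genes, 8 had enough signal to be tested, and Slc7a11 had not.

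Mouse brain RNA was hybridised to 9 short-oligonucleotide arrays in 3 groups of 3 biological replicates. Adult microvascular fragments, pieces of small brain vessels, came from animals aged 1 year on a mixed C57/SV129 background, 1 female (replicate 2) and 2 males, with RNA from a mini kit. Embryonic microvascular fragments and the embryonic brain tissue left without them (rest of brain) came from NMRI mice at embryonic day 18.5, of a sex that the labels do not give, with RNA from a micro kit. For replicate 3 of rest of brain, 1 label names another embryonic day than the rest, and the array stayed in its group. No genetic change or drug treatment is given for any group, and the way the fragments were isolated is not given in the sources used here. Between adult and embryonic fragments, age, strain and RNA kit cannot be told apart, and between adult fragments and rest of brain the tissue differs as well.

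The endothelial cells of brain vessels are sealed by tight junctions, so amino acids reach the brain through carriers in the membranes that face the blood and the brain. Slc7a5 (LAT1) and the glycoprotein Slc3a2 (4F2hc) form the exchanger for large neutral amino acids such as leucine and phenylalanine, and Slc3a2 also pairs with Slc7a11 (xCT), which exchanges cystine for glutamate. Slc7a1 (CAT1) carries arginine and lysine, Slc38a3 and Slc38a5 carry glutamine and histidine, Slc38a2 takes up small neutral amino acids with sodium, Slc1a4 (ASCT1) exchanges alanine, serine and cysteine, and Slc6a6 takes up taurine.

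A promoter, the stretch before a gene's start, was at hand for 6 of the 9 genes, in 7 windows of 250 bases from RefSeq, build GRCm38.p6. Of these, 3 are shown because their genes stand at the ends of the range of patterns: Slc38a5 had the largest difference between embryonic fragments and rest of brain, Slc1a4 the largest between the ages, and Slc7a11 was near background in fragments. Each reads 5′ to 3′ on the gene's strand up to the base before the start. Capitals mark a GC box (GGGCGG) in Slc38a5 and Slc1a4 and an amino acid response element (TGATGNAA) in Slc7a11, searched on both strands, so the reverse complement is in capitals too.
Slc38a5, chrX:8271131-8271380, plus strand: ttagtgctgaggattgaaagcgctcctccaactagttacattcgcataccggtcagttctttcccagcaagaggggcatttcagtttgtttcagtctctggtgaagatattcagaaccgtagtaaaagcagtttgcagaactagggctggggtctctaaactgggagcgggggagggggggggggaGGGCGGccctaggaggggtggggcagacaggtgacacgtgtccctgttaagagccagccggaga
Slc1a4, chr11:20332714-20332963, minus strand: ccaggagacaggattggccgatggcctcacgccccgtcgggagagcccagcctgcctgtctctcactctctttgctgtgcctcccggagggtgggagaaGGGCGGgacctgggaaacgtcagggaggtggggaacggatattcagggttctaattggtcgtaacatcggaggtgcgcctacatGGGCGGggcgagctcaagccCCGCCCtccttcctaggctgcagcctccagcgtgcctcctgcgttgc
Slc7a11, chr3:50443614-50443863, minus strand: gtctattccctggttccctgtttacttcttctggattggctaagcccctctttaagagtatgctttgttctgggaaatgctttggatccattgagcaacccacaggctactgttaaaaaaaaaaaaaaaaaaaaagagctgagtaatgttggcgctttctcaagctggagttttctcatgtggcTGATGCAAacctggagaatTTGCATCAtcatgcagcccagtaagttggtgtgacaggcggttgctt
The GC box, a sequence that Sp-family factors bind, stood 64 to 59 bases before the start of Slc38a5 and at 151 to 146, 67 to 62 and 47 to 42 bases before that of Slc1a4. It was found in 5 of the 7 windows of the carriers and in 32.7% of 32851 mouse promoter windows of that length. The amino acid response element, which the factor ATF4 binds with its partners when amino acids are scarce, stood at 66 to 59 and 47 to 40 bases before the start of Slc7a11, 1 copy on each strand. It was in 1 of the 7 windows and in 3.45% of all windows. The antioxidant response element (TGACNNNGC), bound by Nrf2, was in 2 of the 7 windows, those of Slc38a2 and Slc7a1, and in 10.2% of all windows. None of the matches overlapped. These are matches of letters, and binding was not measured.

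All values that follow are log2 intensities after GCRMA, which corrects probes for background and normalizes arrays by quantiles, and a value under 4 was treated as background. The median over all probe sets was 3.58 to 3.67 per array. Arrays of a group correlated across the tested genes with Pearson's r of 0.978 to 0.993, and arrays of different groups with 0.569 to 0.866. The 14 endothelial marker genes averaged 13.16 to 13.37 per array in adult fragments, 13.00 to 13.24 in embryonic fragments and 5.76 to 6.02 in rest of brain, where Emcn, Pecam1 and Tie1 were under 4 on every array. All 14 were called higher in fragments of each age than in rest of brain. A gene was called when limma's adjusted p over 12009 tested genes was under 0.05. In these pieces of tissue, fewer cells of a type and less RNA per cell cannot be told apart.

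The 8 tested carriers followed 3 orders. Slc7a5, Slc3a2, Slc7a1, Slc38a5 and Slc38a3 were highest in embryonic fragments, lower in adult fragments and lowest in rest of brain. Slc38a2 and Slc1a4 were also highest in embryonic fragments, but on the probe sets used were lower in adult fragments than in rest of brain. Slc6a6 was highest in adult fragments, next in embryonic fragments and lowest in rest of brain. For all 8 genes both steps of the order were called by limma, and the arrays of neighbouring groups did not overlap. Calls were common over all 12009 tested genes: 66.1% in embryonic fragments over rest of brain, 57.1% between the ages and 76% in adult fragments over rest of brain. The share of all genes with both steps called, or with arrays apart at both steps, was not counted. The count for the 8 carriers therefore has no baseline here and is not read as a trait of theirs.

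**Figure D1:**
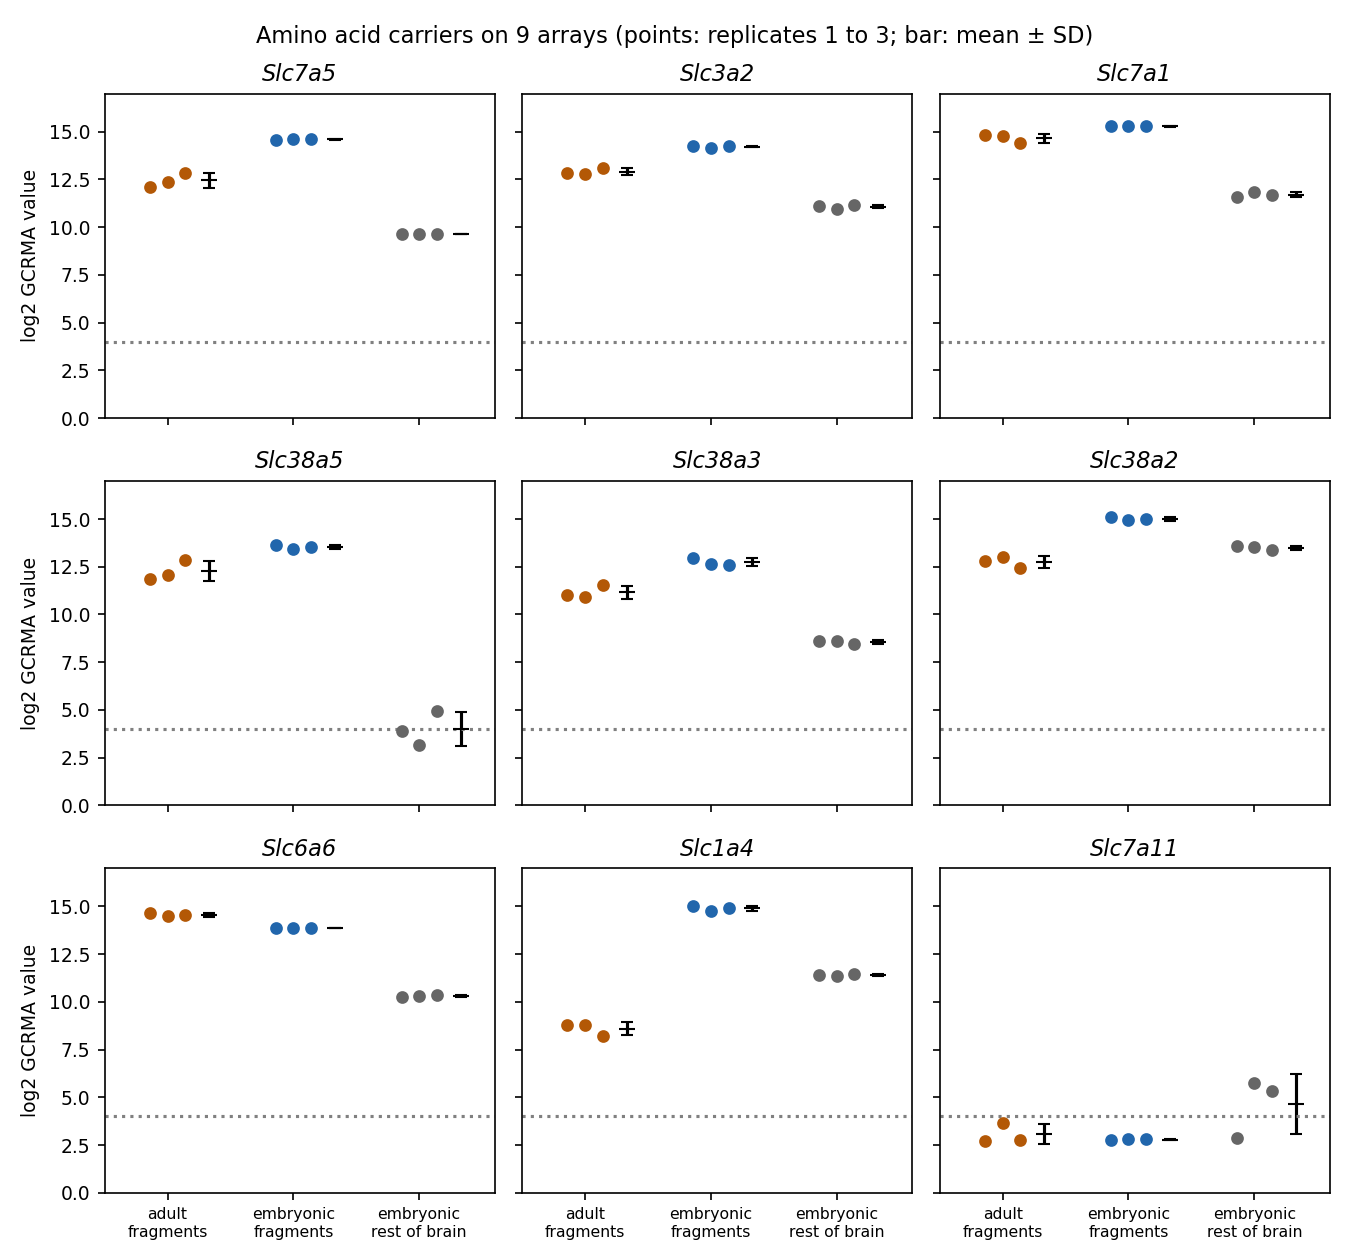
Log2 GCRMA value (vertical axis) of the probe set used for each of the 9 carriers, 1 point per array, with the mean ± SD (n = 3) at the right of each group and a dotted line at the background value of 4. Embryonic fragments lie highest for 7 genes and adult fragments for Slc6a6, while Slc7a11 is under 4 on all fragment arrays.

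Between embryonic fragments and rest of brain, limma called all 8 tested carriers higher and 0 lower, with 0 lower at an unadjusted p under 0.05 as well. Of all 12009 genes, 66.1% were called in this comparison, 28.9% higher and 37.2% lower. The arrays of all 8 carriers lay apart with the fragments above, as did those of 33.1% of all genes, while 43.6% lay apart with the fragments below. The median difference of the 8 was 3.56, beside -0.10 over all tested genes, of which the central 95% ran from -5.35 to 5.11.

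Adult fragments had 1 carrier called higher and 7 called lower than embryonic fragments, where 57.1% of all genes were called, 27.4% higher and 29.7% lower. The arrays did not overlap for any of the 8, with adult fragments above for 1 and below for 7, against 30.3% of all genes above and 32.4% below. The median of the 8 was -1.45, beside -0.02 over all genes. Set against rest of brain, adult fragments had 6 carriers called higher and 2 lower, where 76% of all genes were called, 33.1% higher and 42.9% lower. Again no carrier overlapped, with 34.9% of all genes lying apart above and 45% below. The median of the 8 was 2.69, beside -0.17 over all genes. The 3 comparisons share arrays in pairs, so they are not independent of each other.

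**Figure D2:**
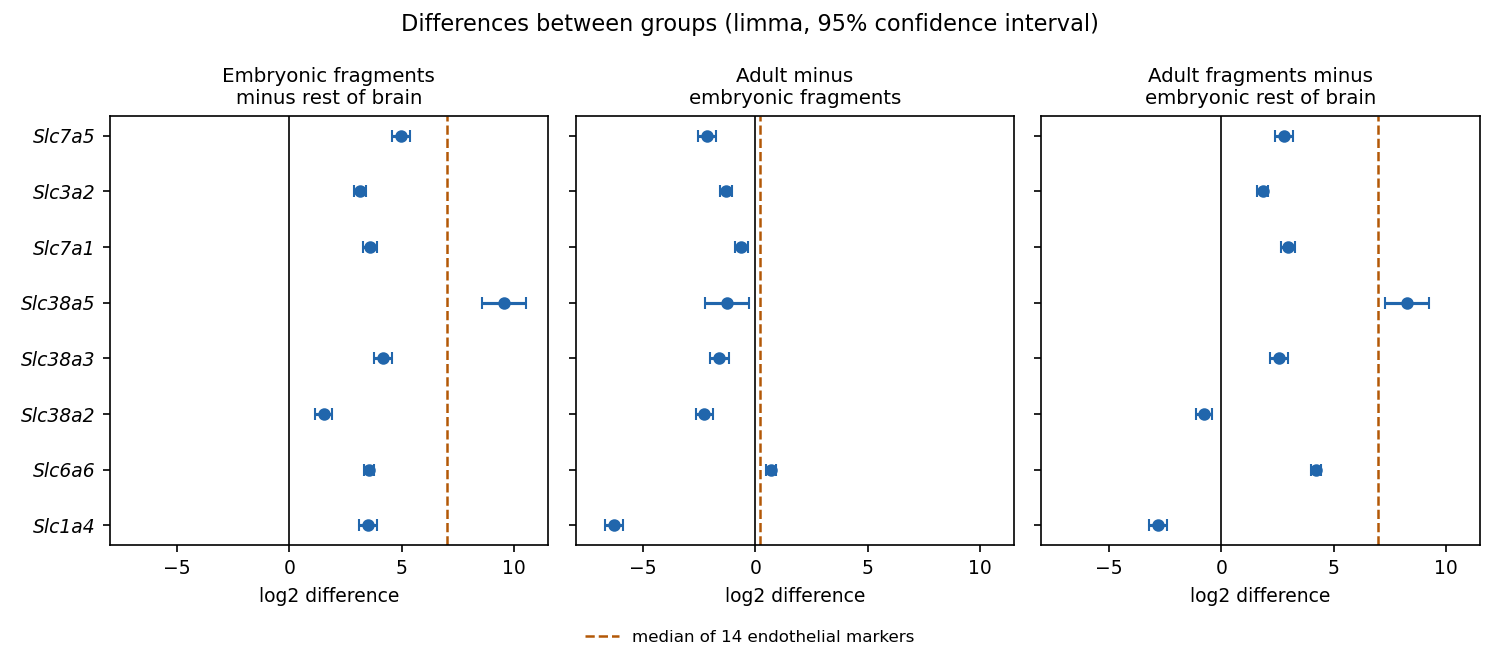
Log2 difference with its 95% confidence interval from the limma fit (horizontal axis) for the 8 tested carriers in the 3 comparisons, with a dashed line at the median of the 14 endothelial markers (7.03, 0.20 and 6.99). All 8 lie above 0 for embryonic fragments minus rest of brain, and 7 of 8 lie below 0 for adult minus embryonic fragments, with Slc1a4 farthest at -6.30.

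The exchanger for large neutral amino acids was higher in fragments of each age than in embryonic rest of brain, and lower in adult than in embryonic fragments. Slc7a5 (probe set 1418326_at), its transporting subunit, had 12.09, 12.38 and 12.86 in adult fragments, 14.58, 14.61 and 14.61 in embryonic fragments and 9.64, 9.64 and 9.66 in rest of brain. The 3 groups lay apart, and the adult arrays were spread most, with a mean ± SD of 12.45 ± 0.39 (n = 3) against 14.60 ± 0.016 in embryonic fragments and 9.65 ± 0.015 in rest of brain. Slc7a5 was 31.0-fold higher in embryonic fragments than in rest of brain (log2 difference 4.95 ± 0.18 SE, limma adjusted p = 2.84e-08). In adult fragments it fell to a level 4.46-fold below that of embryonic fragments (-2.16 ± 0.18, adjusted p = 1.49e-05) and was still 6.96-fold above rest of brain (2.80 ± 0.18, adjusted p = 8.19e-07).

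Slc3a2, which brings Slc7a5 and its relatives to the cell surface, took the same order with smaller steps. It had 12.85, 12.79 and 13.10 in adult fragments, 14.26, 14.17 and 14.23 in embryonic fragments and 11.12, 10.97 and 11.14 in rest of brain. The groups again did not overlap. It was 8.85-fold higher in embryonic fragments than in rest of brain (3.15 ± 0.11, limma adjusted p = 3.07e-08), 2.48-fold lower in adult than in embryonic fragments (-1.31 ± 0.11, adjusted p = 2.13e-05) and 3.58-fold higher in adult fragments than in rest of brain (1.84 ± 0.11, adjusted p = 7.14e-07). Its 1 probe set, 1425364_a_at, has an identifier that marks probes shared between transcripts, and no other probe set of the gene could be used as a check.

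Slc7a1, the carrier of arginine and lysine, changed least between the ages on its brightest probe set, 1454991_at. It had 14.83, 14.77 and 14.39 in adult fragments, 15.30, 15.27 and 15.28 in embryonic fragments and 11.60, 11.83 and 11.67 in rest of brain. Adult and embryonic arrays lay apart, though closely. It was 12-fold higher in embryonic fragments than in rest of brain (3.58 ± 0.13, limma adjusted p = 3.99e-08), 1.54-fold lower in adult than in embryonic fragments (-0.62 ± 0.13, adjusted p = 0.00417) and 7.80-fold higher in adult fragments than in rest of brain (2.96 ± 0.13, adjusted p = 9.48e-08). Its second probe set, 1454992_at, read 12.12, 12.10 and 11.77 in adult fragments, 14.44, 14.07 and 14.20 in embryonic fragments and 8.78, 8.64 and 9.003 in rest of brain. On that probe set the difference between the ages was larger, 4.72-fold (-2.24), and that between embryonic fragments and rest of brain came to 5.43. The brightest value of any probe set on an array was 16.4 to 16.8, so the embryonic values of the brightest Slc7a1 probe set were near the top of the scale, and the part of this in the smaller difference was not tested. Its remaining probe set was under 4 on 8 of 9 arrays and was not tested.

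Slc38a5 and Slc38a3, the sodium-coupled carriers of glutamine and histidine, were both far higher in embryonic fragments than in rest of brain, Slc38a5 by more than any other of the 8. Slc38a5 (1454622_at) had 11.87, 12.07 and 12.87 in adult fragments, 13.64, 13.45 and 13.56 in embryonic fragments and 3.92, 3.15 and 4.95 in rest of brain. It was under 4 on 2 of 3 rest of brain arrays, so its folds against that group lean on values at background. As fitted, it was 747-fold higher in embryonic fragments than in rest of brain (9.54 ± 0.43, limma adjusted p = 1.16e-07) and 308-fold higher in adult fragments than in rest of brain (8.27 ± 0.43, adjusted p = 2.19e-07). In adult fragments it was 2.42-fold lower than in embryonic fragments (-1.28 ± 0.43, adjusted p = 0.0309), with adult replicate 3 closest to the embryonic arrays. This call between the ages was lost when adult replicate 1 (adjusted p = 0.1004) or 2 (0.0840), or embryonic replicate 1 (0.0737), 2 (0.0611) or 3 (0.0713), was left out, and with no filter on low values (0.0764). Over 22 alternatives its difference between the ages stayed between -1.58 and -1.08, with adjusted p-values of 0.00471 to 0.1004.

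Slc38a3 (1418706_at) had 11.02, 10.92 and 11.52 in adult fragments, 12.98, 12.66 and 12.61 in embryonic fragments and 8.64, 8.62 and 8.46 in rest of brain. No array of 1 group reached those of another. It was 18.1-fold higher in embryonic fragments than in rest of brain (4.18 ± 0.18, limma adjusted p = 7.97e-08), 3.03-fold lower in adult than in embryonic fragments (-1.60 ± 0.18, adjusted p = 8.75e-05) and 5.98-fold higher in adult fragments than in rest of brain (2.58 ± 0.18, adjusted p = 1.39e-06). Its second probe set (1446013_at) was above background in embryonic fragments alone, at 6.31, 6.48 and 6.15, with 2.67, 2.85 and 2.85 in adult fragments and 2.43, 2.34 and 2.43 in rest of brain. Set against the background value of 4, its embryonic mean was at least 4.97-fold higher than either of the other groups.

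Slc38a2 and Slc1a4, both carriers of small neutral amino acids, stood below rest of brain in the adult. Slc38a2 (1426722_at) had 12.80, 13.03 and 12.42 in adult fragments, 15.13, 14.94 and 14.999 in embryonic fragments and 13.59, 13.53 and 13.39 in rest of brain. It was 2.86-fold higher in embryonic fragments than in rest of brain (1.52 ± 0.16, limma adjusted p = 3.15e-05), the smallest such difference of the 8 on the probe sets used. Its embryonic values there, like those of Slc7a1, were near the top of the scale, and the part of this was not tested. In adult fragments Slc38a2 was 4.82-fold lower than in embryonic fragments (-2.27 ± 0.16, adjusted p = 5.93e-06) and 1.69-fold lower than in rest of brain (-0.75 ± 0.16, adjusted p = 0.00218). The last of these turned on the probe set. The second probe set (1429593_at) read 9.20, 9.60 and 9.45 in adult fragments, 12.39, 11.84 and 11.63 in embryonic fragments and 8.87, 8.93 and 8.74 in rest of brain, so that adult fragments were higher than rest of brain by 0.56 (limma adjusted p = 0.0306 over all tested probe sets). The third (1429594_at) read 4.84, 6.27 and 5.56 in adult fragments, 7.98, 8.97 and 8.20 in embryonic fragments and 6.50, 6.26 and 6.59 in rest of brain, a difference of -0.89 between adult fragments and rest of brain that was not called (adjusted p = 0.0546). All 3 probe sets were called higher in embryonic fragments than in rest of brain (1.52, 3.10 and 1.93) and lower in adult than in embryonic fragments (-2.27, -2.54 and -2.83).

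Slc1a4 (1456003_a_at), the exchanger that carries serine among other small amino acids, had the largest difference between the ages of the 8. It had 8.79, 8.80 and 8.20 in adult fragments, 15.02, 14.76 and 14.90 in embryonic fragments and 11.40, 11.35 and 11.45 in rest of brain. The adult arrays lay far below both embryonic groups. Slc1a4 was 78.6-fold lower in adult than in embryonic fragments (-6.30 ± 0.17, limma adjusted p = 2.47e-08), a difference outside the central 95% of all tested genes, which began at -3.26. It was 6.97-fold lower in adult fragments than in rest of brain (-2.80 ± 0.17, adjusted p = 6.47e-07) and 11.3-fold higher in embryonic fragments than in rest of brain (3.49 ± 0.17, adjusted p = 2.05e-07). The identifier of this probe set marks probes shared between transcripts. Its other 2 probe sets carry no such mark and were at background in the adult: 1423549_at had 1.88, 1.87 and 2.05 in adult fragments, 11.73, 11.11 and 11.41 in embryonic fragments and 8.35, 7.97 and 8.26 in rest of brain. The third, 1423550_at, had 3.79, 2.39 and 3.46 in adult fragments, 11.04, 10.37 and 10.82 in embryonic fragments and 7.26, 6.82 and 7.16 in rest of brain. Against the background value of 4, adult fragments were at least 171-fold and 107-fold lower than embryonic fragments on these probe sets, and at least 18.3-fold and 8.45-fold lower than rest of brain.

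Slc6a6, the taurine transporter, was the carrier that was higher in the adult. On 1437149_at it had 14.65, 14.48 and 14.53 in adult fragments, 13.85, 13.87 and 13.87 in embryonic fragments and 10.28, 10.33 and 10.38 in rest of brain. The 3 groups lay apart with little spread within them. It was 1.61-fold higher in adult than in embryonic fragments (0.69 ± 0.09, limma adjusted p = 0.000283), 11.6-fold higher in embryonic fragments than in rest of brain (3.54 ± 0.09, adjusted p = 5.03e-09) and 18.7-fold higher in adult fragments than in rest of brain (4.23 ± 0.09, adjusted p = 1.48e-09). The size of the difference between the ages varied with the probe set. On 1421346_a_at, with 13.00, 13.03 and 13.37 in adult fragments and 12.74, 12.63 and 12.81 in embryonic fragments, it was 0.40 (adjusted p = 0.0493 over all tested probe sets, and 0.0531 where the next brightest probe set stood for every gene). On 1449751_at, with 10.48, 9.95 and 9.01 in adult fragments, 5.85, 5.95 and 5.47 in embryonic fragments and 2.404, 2.39 and 2.39 in rest of brain, it was 16.7-fold (4.06), and adult fragments were at least 56.3-fold above rest of brain. Its remaining probe set was at 4.61, 4.56 and 3.37 in adult fragments and under 4 on all embryonic arrays, and was not tested. Which transcripts the probe sets read was not examined.

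Slc7a11, the cystine and glutamate exchanger, was the carrier without a signal in fragments. Its brighter probe set (1443536_at) had 2.73, 3.66 and 2.78 in adult fragments, 2.76, 2.80 and 2.80 in embryonic fragments and 2.88, 5.76 and 5.31 in rest of brain, so 2 rest of brain arrays alone rose above 4. The other probe set (1420413_at) was under 4 on all 9 arrays. Fitted without the filter on low values, over 18194 genes, the brighter probe set differed by -1.86 ± 0.72 between embryonic fragments and rest of brain (limma adjusted p = 0.0810), by 0.27 ± 0.72 between adult and embryonic fragments (adjusted p = 0.940) and by -1.59 ± 0.72 between adult fragments and rest of brain (adjusted p = 0.113). A level under background on an array does not show that the gene was silent.

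**Figure D3:**
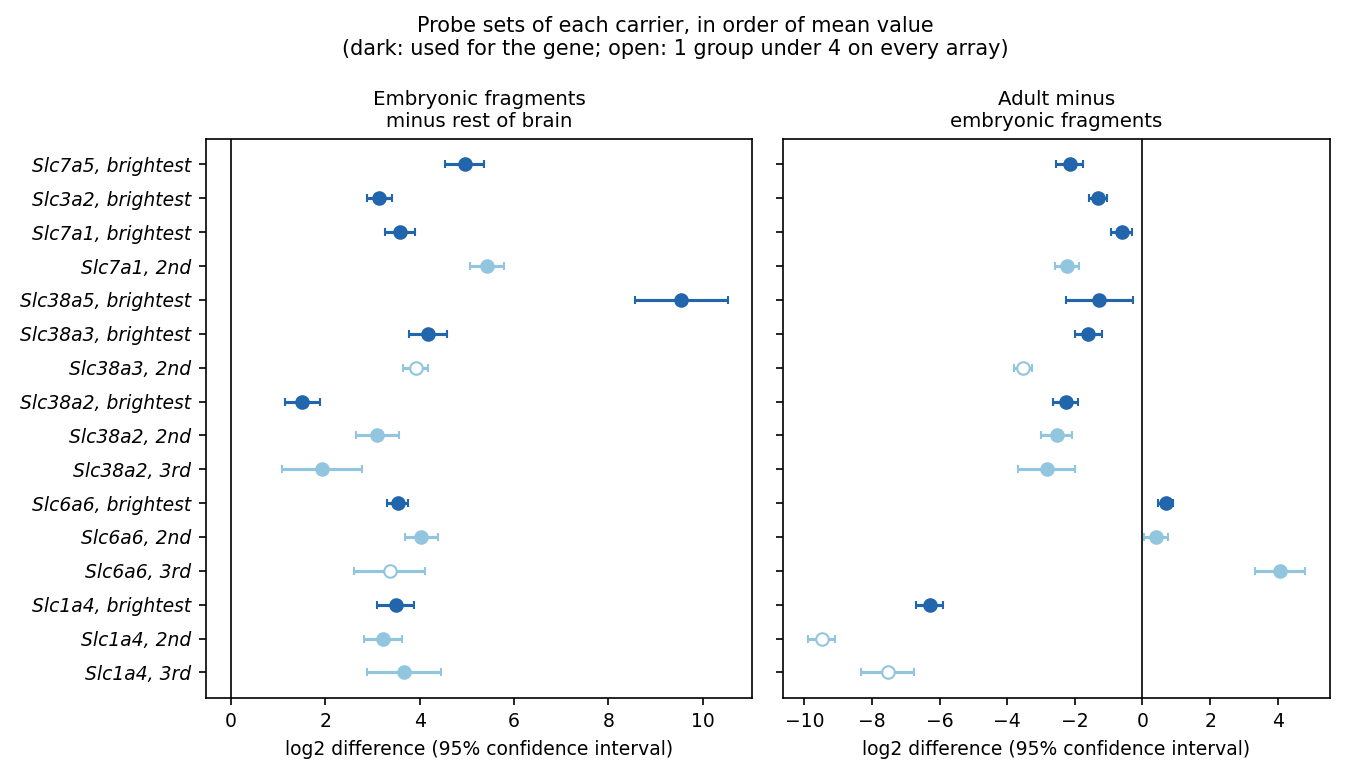
Log2 difference with its 95% confidence interval (horizontal axis) for the 16 tested probe sets of the 8 carriers in embryonic fragments minus rest of brain and in adult minus embryonic fragments. Dark points are the probe sets used for the genes, and open points have a group under 4 on every array, so their size is a fitted value and no measure. All 16 lie above 0 in the left panel, and the 3 of Slc6a6 alone lie above 0 in the right one. The second Slc38a3 probe set passed the filter only through embryonic fragments, so its place in both panels carries no support.

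Over all tested probe sets of the 8 carriers, 16 of 16 were called higher in embryonic fragments than in rest of brain. In adult over embryonic fragments 3 were called higher, all of Slc6a6, and 13 lower. In adult fragments over rest of brain 11 were called higher, 4 lower and 1 was not called, and 1 of the 11, the second of Slc38a3, was at background in both groups. That probe set reached 4 on the embryonic fragment arrays alone and passed the filter only through them. Its calls for embryonic fragments against the other groups thus follow from the filter and carry no support. Probe sets of 1 gene share their RNA and are not separate samples. These calls come from the fit over 20636 probe sets, and the share of all those probe sets called was not counted. In the fit over 12009 genes, 28.9% were called higher and 37.2% lower in embryonic fragments than in rest of brain. Between the ages these shares were 27.4% and 29.7%, and in adult fragments over rest of brain 33.1% and 42.9%.

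Markers of other cell types were read beside the carriers. The 12 neuron markers averaged 3.95 to 4.49 per array in adult fragments, where 7 were under 4 on every array, 5.39 to 6.42 in embryonic fragments, where Gria1 was, and 11.82 to 12.02 in rest of brain. The 10 pericyte and smooth muscle markers averaged 11.70 to 11.80 in adult fragments, 10.15 to 10.55 in embryonic fragments and 7.62 to 7.98 in rest of brain, with Anpep under 4 throughout. The 10 astrocyte and radial glia markers averaged 8.17 to 8.86, 6.82 to 7.90 and 10.56 to 11.05 in adult fragments, embryonic fragments and rest of brain, with Gfap under 4 in embryonic fragments. The 11 microglia and macrophage markers averaged 11.83 to 12.59, 10.58 to 12.60 and 8.50 to 8.66 in that order, and all 11 were called higher in embryonic fragments than in rest of brain. The 7 choroid plexus and ependyma markers averaged 9.90 to 10.08, 7.22 to 8.73 and 9.24 to 9.66. The 9 oligodendrocyte markers averaged 5.94 to 6.35, 5.54 to 6.06 and 7.89 to 8.30, the 10 fibroblast and meningeal markers 8.58 to 8.78, 8.55 to 9.01 and 10.20 to 10.35, and the 4 blood cell markers 4.13 to 5.06, 6.79 to 8.57 and 5.76 to 6.29. In adult over embryonic fragments, calls were 2 higher and 7 lower of 12 tested neuron markers, 5 and 1 of 9 pericyte, 6 and 2 of 9 astrocyte, 1 and 1 of 11 microglia, 6 and 0 of 7 choroid plexus, 2 and 2 of 7 oligodendrocyte, 2 and 2 of 10 fibroblast and 0 and 2 of 3 blood cell markers. The part of these cells in the differences of the carriers was not tested. Of the 14 endothelial markers, 3 were called higher, 3 lower and 8 not between the ages. Their median was 0.20 and their range -1.41 to 1.94. The differences of Slc3a2, Slc7a1, Slc38a5 and Slc6a6 between the ages, on the probe sets used, lay within that range. The fragment arrays were also scaled to equal endothelial marker means, a choice made after seeing the data that moved the ages by 0.16. The carriers then had 1 call higher (Slc6a6, 0.53) and 7 lower, with Slc7a5 at -2.31 and Slc1a4 at -6.45. That shift was smaller than the difference of every carrier between the ages, so it could reverse no direction.

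Among other amino acid carriers, 27 of the 41 on the array were tested, and they did not share the direction of the 8. In embryonic fragments over rest of brain 9 (33.3%) were called higher and 16 (59.3%) lower, with a median of -0.99. The shares over all genes were 28.9% and 37.2%. The highest were Slc7a8 (LAT2), another partner of Slc3a2, at 10.42 ± 0.28 in embryonic fragments and 3.95 ± 0.13 in rest of brain (6.47 ± 0.25 SE, under 4 on 2 of 3 rest of brain arrays), Slc7a7 (y+LAT1), also a partner of Slc3a2, which was 37.4-fold higher (5.23 or, on its next brightest probe set, 3.08), and Slc43a2 (LAT4), which was 12.4-fold higher (3.64, or 3.01 on its next brightest probe set). Slc1a2 (GLT-1), the main glutamate transporter of astrocytes, was lower by -6.74 ± 0.71 with 2 of 3 embryonic fragment arrays under 4 (-6.09 on its next brightest probe set and -2.58 as the mean of its probe sets), Slc7a14 was at least 14.1-fold lower on the probe set used (-2.75 as the mean of its probe sets), and Slc6a9 (GlyT1), a glycine transporter, was 18.0-fold lower (-4.17, or -2.26 as the mean of its probe sets). The limma adjusted p of these 6 genes lay between 7.76e-09 and 3.17e-05.

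Of the 27, 9 (33.3%) were called higher and 10 (37.0%) lower in adult than in embryonic fragments, with a median of -0.01. The shares over all genes were 27.4% and 29.7%, near those of the 27. Without embryonic fragment replicate 3 the count of lower calls among the 27 was 6. Slc7a8 and Slc43a2, which carry large neutral amino acids as Slc7a5 does, were lower in the adult, by 14.4-fold (6.57 ± 0.49 in adult and 10.42 ± 0.28 in embryonic fragments) and 7.12-fold (9.57 ± 0.52 in adult and 12.40 ± 0.09 in embryonic fragments; limma adjusted p = 3.43e-06 and 1.33e-05). Slc6a15, a carrier of branched-chain amino acids and proline, was lower by -4.06 ± 0.75 (adjusted p = 0.00168), with 1 adult array under 4. Slc1a2 was higher, at 12.35 ± 0.48 in adult and 3.55 ± 1.56 in embryonic fragments (8.80 ± 0.71, adjusted p = 1.32e-05), and by 5.46 on its next brightest probe set and 2.85 as the mean of its probe sets. It is also on the astrocyte marker list, which had 6 calls higher and 2 lower of 9 here. Slc7a10 (Asc-1), which exchanges small amino acids such as glycine and serine, was at least 9.17-fold higher, and Slc6a20a, a carrier of proline, 3.88-fold higher (11.58 ± 0.20 in adult and 9.62 ± 0.26 in embryonic fragments, adjusted p = 1.32e-05).

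Against rest of brain, adult fragments had 10 of the 27 (37.0%) called higher and 12 (44.4%) lower, with a median of -0.15. The shares over all genes were 33.1% and 42.9%, near those of the 27. Slc7a7 was higher by 3.83 (limma adjusted p = 7.24e-05), though not on its next brightest probe set (1.64, adjusted p = 0.162), Slc7a8 by 2.63 and Slc6a20a by 2.57. Slc6a15 was lower by -6.86, Slc38a1 (SNAT1), a glutamine carrier, by -3.11, and Slc7a14 was at least 14.1-fold lower (-2.68 as the mean of its probe sets).

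**Figure D4:**
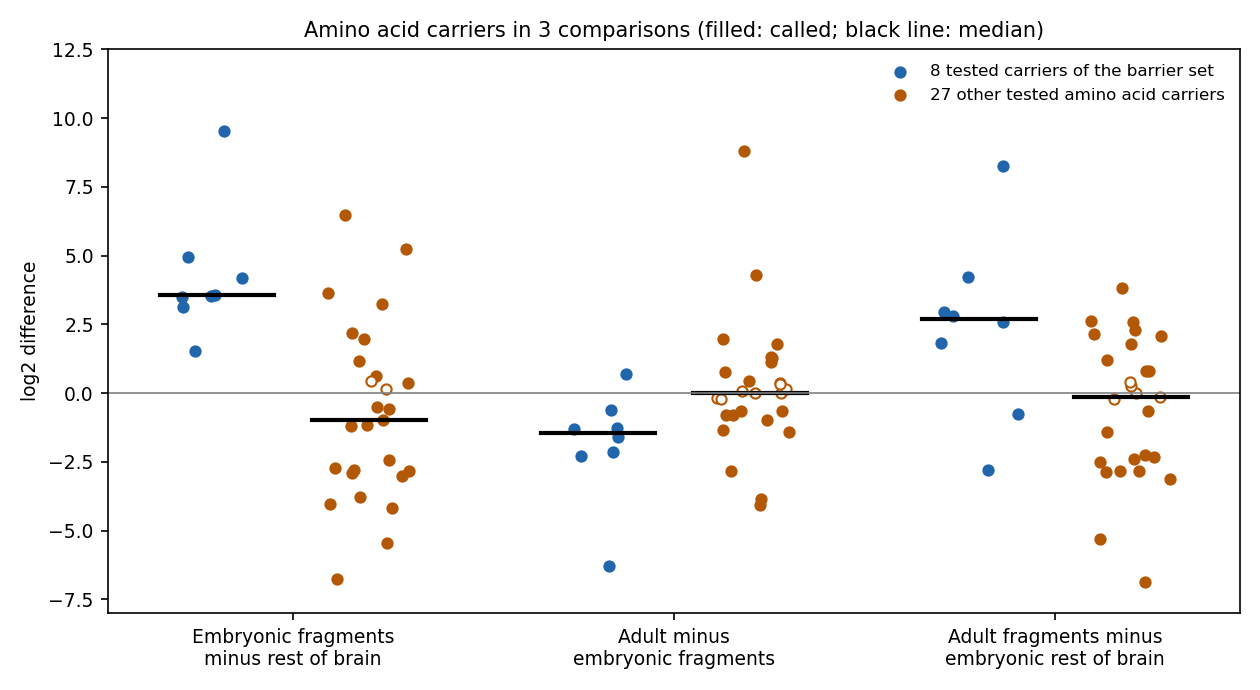
Log2 difference (vertical axis) of the 8 tested carriers and of 27 other amino acid carriers in the 3 comparisons, 1 point per gene, filled where limma called it, with a black line at the median. The 8 carriers all lie above 0 for embryonic fragments minus rest of brain, and the 27 others lie on both sides, with a median of -0.99.

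The following lists are given by their counts, and none was tested against all genes. Of all genes, 28.9% were called higher and 37.2% lower in embryonic fragments than in rest of brain. In adult over embryonic fragments these shares were 27.4% and 29.7%, and in adult fragments over rest of brain 33.1% and 42.9%. Of 27 tested genes of the ATF4 response to amino acid shortage, 7 (25.9%) were called higher and 12 (44.4%) lower in embryonic fragments than in rest of brain (median -0.33). Atf3, a stress-induced transcription factor, was higher by 5.86 ± 0.41 (limma adjusted p = 1.97e-06, 1 rest of brain array under 4). Phgdh, the first enzyme of serine synthesis, was lower by -3.42 ± 0.34 (adjusted p = 2.10e-05, and -2.59 as the mean of its probe sets). Across the ages 8 (29.6%) were called higher and 9 (33.3%) lower in adult fragments (median -0.02), with Trib3, a pseudokinase that ATF4 induces, higher by 2.86 ± 0.28 (adjusted p = 4.46e-05, and 3.51 on its next brightest probe set) and Psat1, a later enzyme of serine synthesis, lower by -2.16 ± 0.17 (adjusted p = 1.07e-05, and -3.21 on its next brightest probe set). Psat1 took the direction of Slc1a4 between the ages but not between embryonic fragments and rest of brain, where its mean was 12.16 in embryonic fragments and 13.39 in rest of brain. Of these genes, in adult fragments over rest of brain, 9 (33.3%) were called higher and 13 (48.1%) lower (median -0.18).

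Of 10 tested enzymes of arginine, glutamine and taurine metabolism, 4 (40%) were called higher and 5 (50%) lower in embryonic fragments than in rest of brain (median -0.36). Nos3, the endothelial enzyme that makes nitric oxide from arginine, was higher by 8.35 ± 0.38 (limma adjusted p = 1.24e-07, 1 rest of brain array under 4), and Cdo1, which turns cysteine towards taurine, was under 4 on all embryonic fragment arrays and at least 31.1-fold lower. In the adult fragments 2 (20%) were called higher and 5 (50%) lower than in embryonic fragments (median -0.48), with Nos1 higher by 4.09 ± 0.34 (adjusted p = 1.77e-05, 2 embryonic fragment arrays under 4) and Ddah2, which breaks down inhibitors of nitric oxide synthesis, lower by -1.73 ± 0.24 (adjusted p = 0.000324). Between adult fragments and rest of brain 4 (40%) were called higher and 5 (50%) lower (median -0.57).

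Of 13 tested genes of glutathione synthesis and the Nrf2 response, to which the cystine carried by Slc7a11 is linked, 5 (38.5%) were called higher and 3 (23.1%) lower in embryonic fragments than in rest of brain (median 0.20). Nfe2l2, which encodes Nrf2, was higher by 2.77 ± 0.18 (1.45 as the mean of its probe sets) and Txnrd1, a thioredoxin reductase, lower by -2.08 ± 0.18 (limma adjusted p = 1.22e-06 and 1.04e-05). Between adult and embryonic fragments 4 were called higher and 4 lower (30.8% each, median 0.08), with Me1 higher by 1.52 ± 0.22 and Gpx1, a glutathione peroxidase, lower by -1.40 ± 0.17 (adjusted p = 0.000413 and 0.000148). Between adult fragments and rest of brain 4 (30.8%) were called higher and 2 (15.4%) lower (median 0.24). The lower call of Gsr among these 2 (adjusted p = 0.0401) was lost under 12 of 22 alternatives (adjusted p of 0.0522 to 0.184), 5 of which left out adult fragment replicate 2 or 3, embryonic fragment replicate 3 or rest of brain replicate 1 or 2. The other 7 were no filter, quantile normalization, cyclic loess, median centring, an intensity trend, and the groups alone with and without the replicate block.

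Of 23 tested genes through which amino acids control the growth kinase mTORC1, 4 were called higher and 4 lower in embryonic fragments than in rest of brain (17.4% each, median -0.14). With these 2 groups fitted alone 6 were called lower, and 7 with the replicate number as a block in that fit. Castor1, an arginine sensor, was higher by 3.68 ± 0.22 and Rragd, a Rag GTPase, lower by -4.30 ± 0.32, or -2.10 as the mean of its probe sets (limma adjusted p = 8.01e-07 and 3.14e-06). Between adult and embryonic fragments 7 were called higher and 7 lower (30.4% each, median -0.13), with Rragd higher by 3.31 ± 0.32 and Mlst8, a subunit of mTORC1, lower by -1.29 ± 0.30, or 1.09 and -0.65 as the means of their probe sets (adjusted p = 3.99e-05 and 0.00593). Between adult fragments and rest of brain 7 (30.4%) were called higher and 11 (47.8%) lower (median -0.17).

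Genes whose levels ran most like those of each carrier were named by Pearson's r over the 9 arrays. Those arrays fall into 3 groups, so the values mostly show a like order and relative spacing of the groups and carry no test. They do not show a like size of difference: the group means of Rpl38, named for Slc1a4, ran from 14.42 to 15.16. In rest of brain the means of Kcnq1 and Sema3g were under 4, at 3.66 and 3.37. Slc7a5, Slc3a2 and Slc38a3 each had Rrbp1 as the closest gene (r = 0.998 for each), followed by Kcnq1 (0.997), Tpm4 (0.998) and N4bp3 (0.997). For Slc7a1 the closest were Diaph2 (0.999) and Arhgef5 (0.998). For Slc38a5 they were Kdr (0.998), an endothelial growth factor receptor, and Vwa1 (0.997). For Slc6a6 they were Abcb1a (0.999), the drug efflux pump of brain endothelium, and Sema3g (0.999). Aldh4a1 was among the closest for both Slc38a2 (0.992, after Tspan18 at 0.998) and Slc1a4 (0.997, before Rpl38 at 0.995). Both carriers stood below rest of brain in the adult on the probe sets used, which for Slc38a2 turned on the probe set.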

How the data were processed

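The deposited table holds 1 log2 value per probe set and array for 9 arrays. Per the submitters' processing notes, the authors made these values with GCRMA 2.6.0 in R 2.4.1, and that they are log2 was read from their range. The sources used here name no further step. Without scanner files or scan dates, which were not analysed here, no batch by slide or date was tested. Normalization by quantiles hides a change in total RNA per cell. Per the labels' protocols, about 100 ng of total RNA per sample was amplified and labelled as cRNA with a small-sample method. No 2 arrays were identical, and 0 columns were left unused. Precision is limited by the number of arrays.

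In the platform annotation, 1 gene is named for 34958 of 45101 probe sets, several for 932 and none for 9211. Looked up by Entrez identifier in RefSeq's genes (GRCm38.p6), 34754 probe sets were found and 0 symbols changed. A gene was represented by its probe set with the highest mean and tested where this reached 4 on 3 or more of the 9 arrays. The comparisons were 2-sided tests with limma 3.58.1 under R 4.3.3 (lmFit, then eBayes, all arrays in 1 fit, 8.43 residual and prior degrees of freedom), with Benjamini-Hochberg adjustment over 12009 genes and calls at an adjusted p under 0.05. Other probe sets were tested in a second limma fit over all probe sets that passed the same filter. The procedure was tested on simulated data. "At least" folds set 1 group's mean against 4 where the other group was under 4 on all 3 arrays.

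The 9 carriers, the gene and marker lists, and the tests were chosen with earlier results of these data known, so they carry no independent support. Named from each pathway list were, by rule, the 3 called genes with the largest difference in each direction among those whose higher group averaged 6 or more. All 3 are given for the other carriers, and the 1 largest between embryonic fragments and rest of brain and between the ages for the other lists. For likeness, the 2 tested genes with the highest Pearson's r were named. There were 23 alternatives, covering the filter, floor, offset, scaling, choice of probe set, fit, weights, replicate block and each array left out.

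Replicate numbers are shared by the groups. Same-numbered embryonic fragment and rest of brain arrays deviated together from their group means (r of 0.19, 0.20 and 0.22 over genes), a hint of pairing for which the labels give no source. The reported tests have no block, and the fit with the replicate number as a block, made on the 2 groups compared alone, is an alternative. Promoter windows came from a RefSeq table of GRCm38.p6, with the transcribed bases left out.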

Additional observations from a re-analysis of the deposited data

How the results depend on the processing

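Of the 524 results for single carriers under the alternatives, 515 kept their direction and side of the threshold, 8 kept the direction but were no longer called, and 1 reversed. Slc38a2 in adult fragments over rest of brain was 0.56 (limma adjusted p = 0.0316) with the next brightest probe set, which left 1 carrier called lower there, against 2, and -0.36 (adjusted p = 0.0842) as the mean of all probe sets, which also left 1. With the next brightest probe set, 0 carriers were called higher in adult than in embryonic fragments by limma (Slc6a6 0.40, adjusted p = 0.0531, and 1 was at an unadjusted p under 0.05), against 1, and 2189 of all genes were, against 3289. The other 6 lost calls were those of Slc38a5 between the ages. The count of carriers called stayed at 7 to 8 higher and 0 lower in embryonic fragments over rest of brain, where leaving out probe sets with shared probes removed Slc3a2. It stayed at 6 to 7 lower in adult over embryonic fragments, and at 5 to 7 higher in adult fragments over rest of brain. With the replicate block, in a fit of the 2 groups alone, 8 carriers were higher and 0 lower in embryonic fragments over rest of brain (3622 and 4711 of all genes, against 3700 and 4792 in that fit without the block), 1 and 7 in adult over embryonic fragments (2804 and 2950, against 2990 and 3177) and 6 and 2 in adult fragments over rest of brain (3863 and 4955, against 3923 and 5032), so neither change altered a call of a carrier. The numbers of adult arrays did not pair them with embryonic fragments (r of 0.03, -0.08 and 0.21) or rest of brain (-0.09, -0.07 and 0.13). The median over all genes in adult fragments over rest of brain was -0.03 with cyclic loess, against -0.17.

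Of 30 counts over the pathway lists, 19 moved by more than 1.5 times under some alternative, mostly another choice of probe set. In embryonic fragments over rest of brain, other carriers had 8 lower with the next brightest probe set, against 16, and the lowest counts elsewhere were 3 response genes higher, against 7, 3 glutathione genes higher and 1 lower, against 5 and 3, 2 arginine, glutamine and taurine enzymes higher and 3 lower, against 4 and 5, and 2 mTORC1 genes lower, against 4, or 6 with the groups fitted alone and 7 with the block in that fit. In adult over embryonic fragments, other carriers had 5 higher, against 9, and 6 lower with the groups fitted alone, with or without the replicate block, against 10. There the lowest counts were 3 response genes higher, against 8, 2 glutathione genes higher, against 4, 0 arginine, glutamine and taurine enzymes higher, against 2, and 4 mTORC1 genes higher, against 7. In adult fragments over rest of brain, other carriers had 6 higher and 6 lower, against 10 and 12, and the lowest counts were 5 response genes higher, against 9, 1 glutathione gene lower, against 2, 2 arginine, glutamine and taurine enzymes higher, against 4, and 6 mTORC1 genes lower, against 11. Single genes that changed direction with the probe set were Seh1l, at 1.52 in embryonic fragments over rest of brain and -1.16 in adult over embryonic fragments with the next brightest probe set (the same without shared probes), against -0.63 and 0.91, and Glul at -0.55 between the ages, against 0.73. The causes were not tested.

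Replicates, 3 per group, limit what small differences can be called, and values under 4 have no order. Age, strain and RNA kit cannot be told apart between the fragments.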
